A study of Mus musculus with 8 samples.

Results

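Calprotectin and the interleukin-1 axis were followed in the kidney through 8 genes, namely *S100a8*, *S100a9*, *Csf3r*, *Il1b*, *Il1rn*, *Il1r1*, *Il18* and *Tnf*, out of 18217 named genes on the array. They were chosen by name, from what they are known to do and with earlier results of these data known. Every probe of each gene was read. Total RNA from whole kidneys of 8 mice aged 8 weeks was labelled with Cy3 and hybridised to Agilent 1-colour arrays, 1 array per mouse. The question put to the arrays was which transcripts differ in kidneys where Nrf2, the transcription factor of the antioxidant response, is constitutively active. The 4 NEKO mice were Keap1-/-::Nrf2Flox/Flox::K5-Cre, so that Keap1, the protein that keeps Nrf2 low, was missing from the whole body, and Nrf2 was deleted where K5-Cre is active, in squamous epithelium. Of the 4 control mice, 3 were K1Cre (Keap1+/-::Nrf2Flox/Flox::K5-Cre) and 1, control 1, was K1 (Keap1+/-::Nrf2Flox/Flox). All 8 mice thus carried the floxed *Nrf2* alleles, all controls lacked 1 copy of *Keap1*, and the strain background was a mixture of 129Sv/J and C57BL/6J. Each group held 2 females and 2 males: controls 1 and 8 and NEKO 2 and 3 were female, and controls 4 and 7 and NEKO 5 and 6 were male.

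*S100a8* and *S100a9* encode the 2 subunits of calprotectin, a calcium- and zinc-binding protein that fills the cytoplasm of neutrophils and is released as a danger signal sensed by the receptors Tlr4 and Ager. IL-1 beta and IL-18 are made as precursors, cut by caspase-1 in the inflammasome, and signal through Myd88 and Irak kinases to NF-kB, while the IL-1 receptor antagonist encoded by *Il1rn* blocks the IL-1 receptor. In the kidney, IL-18 is known as a product of tubular and collecting duct cells, and calprotectin and IL-1 beta as products of infiltrating myeloid cells. In whole tissue, fewer cells of a type and less RNA per cell cannot be told apart.

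Levels are given as log2 of the processed signal over the 75th percentile of all probes on that array, so that 0 is a fairly bright probe, and a level of one probe cannot be set against that of another. The share of probes well above background ran from 61.7% to 65.7% over the arrays. *Keap1* itself was at 0.20 ± 0.17 (SD) in the NEKO mice against 1.84 ± 0.07 in the controls, a log2 change of -1.63 (SE 0.10) with an adjusted p of 0.0046 in limma. All 10 kidney marker genes, among them *Umod*, *Slc34a1* and *Nphs1*, were well above background on all 8 arrays. Each slide held the mice of 1 sex, and sex cannot be told apart from the slide. On both slides the controls lay at positions 1 and 2 and the NEKO mice at positions 3 and 4, so that genotype and position cannot be told apart either.

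**Figure D1:**
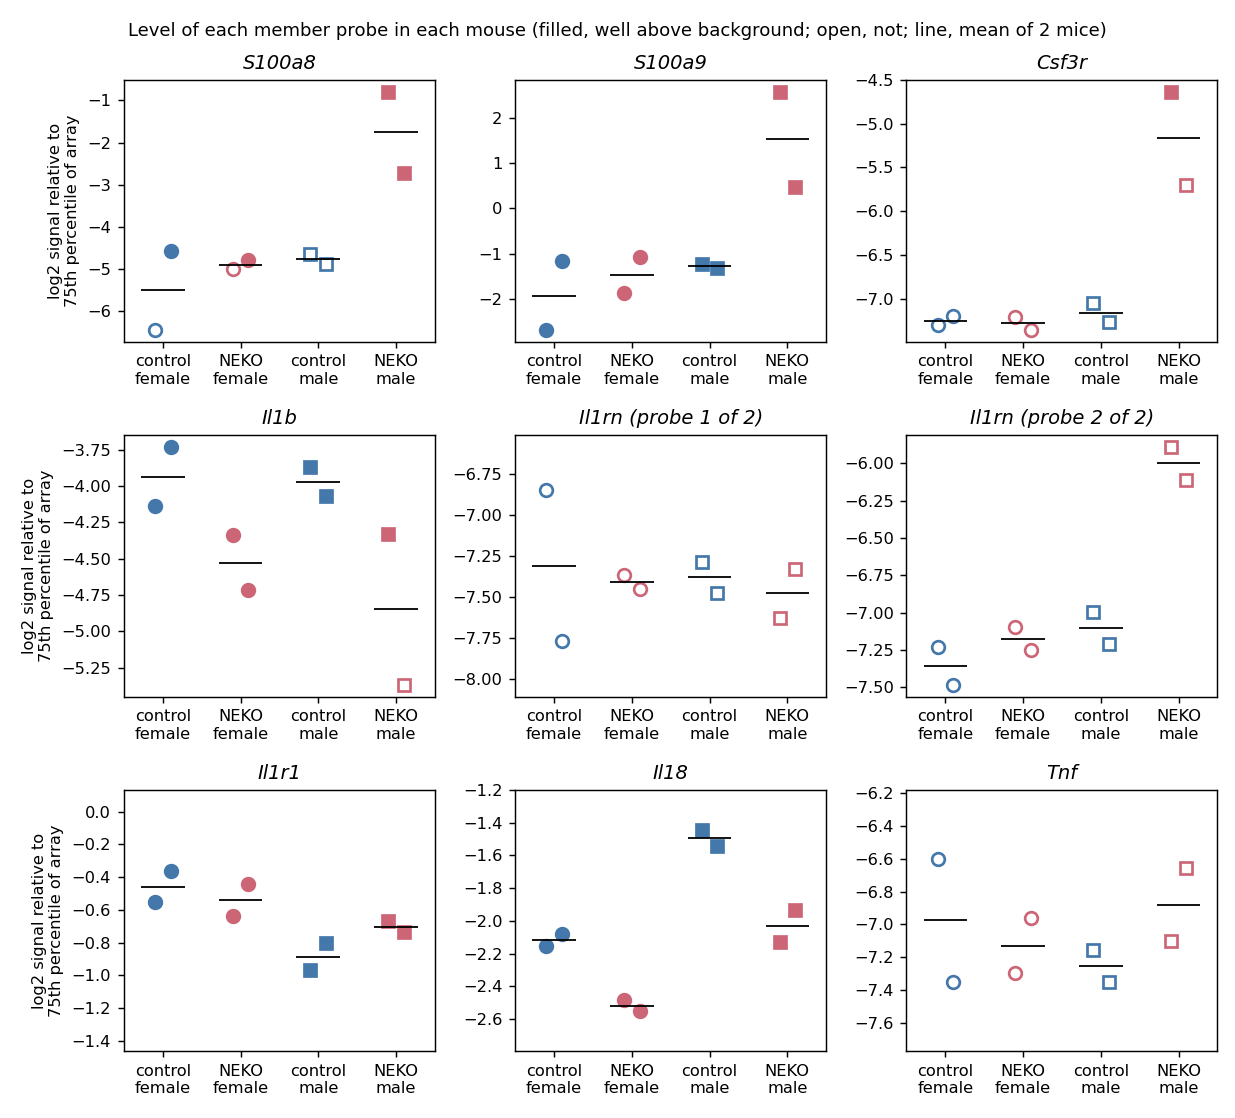
Level of each of the 9 probes of the 8 genes in each mouse, as log2 signal over the 75th percentile of that array, with 1 panel per probe and its own vertical scale. Filled points were well above background and open points were not, and lines are means of 2 mice. *S100a8* and *S100a9* were high in NEKO 5 and NEKO 6, both males. Every NEKO mouse lay below all controls for *Il1b*, and *Il18* was lower in the NEKO mice within each sex.

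The calprotectin genes are neighbours on mouse chromosome 3. Their promoter windows are shown because the 2 transcripts varied together from mouse to mouse, with that of *Il1b*, which did not follow them, for comparison. The windows are the 250 bases before the RefSeq start of each gene, read along the gene, from the GRCm38.p6 table: chr3:90668821-90669070 on the plus strand for *S100a8*, chr3:90695722-90695971 on the minus strand for *S100a9* and chr2:129371140-129371389 on the minus strand for *Il1b*. Capitals mark the core GAGGAA or its complement TTCCTC, the letters bound by PU.1, a transcription factor of myeloid cells.
S100a8: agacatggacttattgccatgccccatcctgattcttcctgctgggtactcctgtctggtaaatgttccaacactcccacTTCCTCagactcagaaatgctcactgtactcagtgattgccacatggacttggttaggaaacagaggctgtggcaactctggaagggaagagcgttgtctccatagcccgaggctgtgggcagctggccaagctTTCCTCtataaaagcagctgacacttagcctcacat
S100a9: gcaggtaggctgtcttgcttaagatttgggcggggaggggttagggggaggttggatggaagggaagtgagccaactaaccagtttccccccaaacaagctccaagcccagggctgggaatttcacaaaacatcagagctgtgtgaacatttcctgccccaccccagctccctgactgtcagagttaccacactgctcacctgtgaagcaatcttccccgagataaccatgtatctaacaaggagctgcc
Il1b: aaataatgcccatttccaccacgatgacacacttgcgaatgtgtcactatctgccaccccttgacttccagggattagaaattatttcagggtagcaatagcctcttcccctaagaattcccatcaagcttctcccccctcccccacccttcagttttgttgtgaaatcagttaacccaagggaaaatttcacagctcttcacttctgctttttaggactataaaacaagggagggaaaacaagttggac

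The *S100a8* window held the PU.1 core 2 times, both on the minus strand, at 170 to 165 and at 36 to 31 bases before the start, and 23.3% of 32851 promoter windows of this length held it at least once on either strand. The windows of *S100a9* and *Il1b* held none of the 4 motifs searched. The others were the antioxidant response element core TGACNNNGC (in 10.2% of all windows), the NF-kB motif, GGG and CC with any 5 bases between them (45.8%), and the AP-1 motif TGANTCA (6.75%). No window of the 8 genes held TGACNNNGC. The *Tnf* and *Csf3r* windows each held 1 NF-kB and 1 PU.1 match. Of the 3 windows of *Il1rn* the first held 1 NF-kB and 1 AP-1 match and the third 1 NF-kB match, and the second of the 2 windows of *Il1r1* held 1 NF-kB match. Such matches describe these letters and do not show that a factor binds, and the arrays did not measure binding.

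*S100a9*, whose product carries the zinc-binding tail of calprotectin, was well above background on all 8 arrays. Its level was -2.69, -1.23, -1.33 and -1.18 in controls 1, 4, 7 and 8. It was -1.86 and -1.08 in NEKO 2 and NEKO 3, the females, and 2.59 and 0.48 in NEKO 5 and NEKO 6, the males. Both NEKO males thus lay above every control. Of the NEKO females, NEKO 3 lay just above the highest control and NEKO 2 lay within the range of the controls. *S100a8*, the other subunit, had a dim probe that was well above background only on the arrays of NEKO 3, NEKO 5, NEKO 6 and control 8. Its level was -6.43, -4.64, -4.89 and -4.57 in controls 1, 4, 7 and 8. It was -5.00 and -4.79 in the NEKO females, and -0.80 and -2.71 in NEKO 5 and NEKO 6. The order at the top was that of *S100a9*, with NEKO 5 first, NEKO 6 next, and the other 6 mice well below. Among those the order differed, as NEKO 3 lay below controls 4 and 8 for *S100a8*.

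Over the 4 NEKO and 4 control mice, with sex as a covariate, the log2 change of *S100a8* was 1.81 (SE 0.68), with a 95% interval of 0.19 to 3.42, and that of *S100a9* was 1.64 (SE 0.68), with an interval of 0.03 to 3.24. Neither passed the test, with adjusted p of 0.24 and 0.27 in limma, and both groups overlapped. The exact two-sided permutation test of 4 against 4 mice gave p of 0.26 for *S100a8* and 0.20 for *S100a9*, where the smallest possible value is 0.029. *S100a8* entered the test through the NEKO arrays, which gave 3 of the 4 arrays on which it was well above background. NEKO 5 carried much of the difference: without it the log2 change of *S100a9* was 0.98 (SE 0.47, adjusted p 0.37), and that of *S100a8*, with its probe kept, was 1.18 (SE 0.52, adjusted p 0.35). With normexp background correction the change of *S100a8* was 0.91. Among all tested genes and transcripts, 0.306% had a higher log2 change than *S100a8* and 0.398% than *S100a9*.

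Within the sexes the values were far apart. In males, the log2 change was 3.01 (SE 0.77) for *S100a8* and 2.81 (SE 0.78) for *S100a9*, the latter a 7.02-fold ratio. Neither passed within males, with adjusted p of 0.097 and 0.12 in limma. For *S100a8* neither control male was well above background, so its 8.05-fold ratio is that of the signals and its size is not measured. In females the log2 change was 0.60 (SE 0.77) for *S100a8* and 0.46 (SE 0.78) for *S100a9*. The difference between the effects in males and females was 2.41 (95% interval -0.24 to 5.05, adjusted p 0.52 in limma) for *S100a8* and 2.35 (-0.32 to 5.02, adjusted p 0.54) for *S100a9*, so neither was shown to differ between the sexes. Of all genes and transcripts tested, 0.0153% passed that test, and none of the 5 tested genes of the group did. At an unadjusted p under 0.05 the share was 10.5%, again with 0 of the 5.

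**Figure D2:**
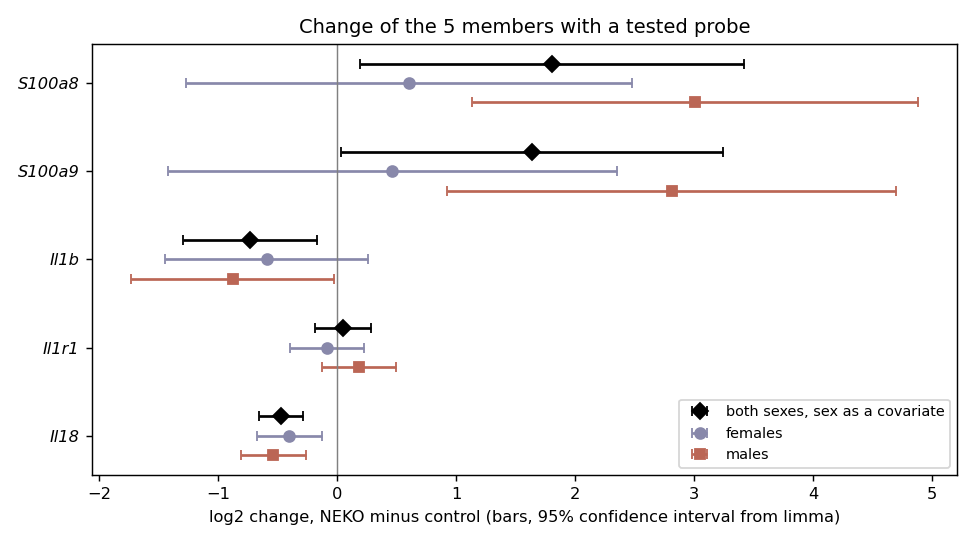
Log2 change, NEKO minus control, of the 5 genes with a tested probe, in the fit over both sexes and within females and males, with 95% confidence intervals from limma. No control male measured *S100a8* above background. The intervals of *S100a8* and *S100a9* in males lie above 0 and those in females span it, while the 3 estimates for *Il18* lie between -0.54 and -0.40. The intervals are not adjusted for the number of genes, and neither calprotectin gene passed the adjusted test in males.

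The 2 calprotectin transcripts ran in parallel over the mice. After each was centred on its own mean over the 8 arrays, the profiles differed by a root mean square of 0.21 on the log2 scale, against sizes of 1.60 for the *S100a8* pattern and 1.52 for the *S100a9* pattern. Over 13568 other named genes, the 5 most like the mean of the pair by the same measure were *Apol11b* (0.60), *Alas2* (0.67), *Treml1* (0.71), *Epo* (0.73) and *Apol10b* (0.73), each of these being a root mean square difference over 8 arrays. *Alas2* encodes the first enzyme of haem synthesis in erythroid cells, *Treml1* a platelet receptor, and *Epo* erythropoietin. The level of *Epo* was -1.04 in NEKO 5, -2.58 in NEKO 6, -4.27 in NEKO 3 and -6.42 in NEKO 2, against -6.48 to -5.04 in the 4 controls. NEKO 2 thus lay within the range of the controls. The log2 change of *Epo* was 2.44 (SE 0.95), with an adjusted p of 0.25 in limma. Its probe was well above background in 3 NEKO mice and 1 control, as for *S100a8*. None of these 5 genes passed the test.

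**Figure D3:**
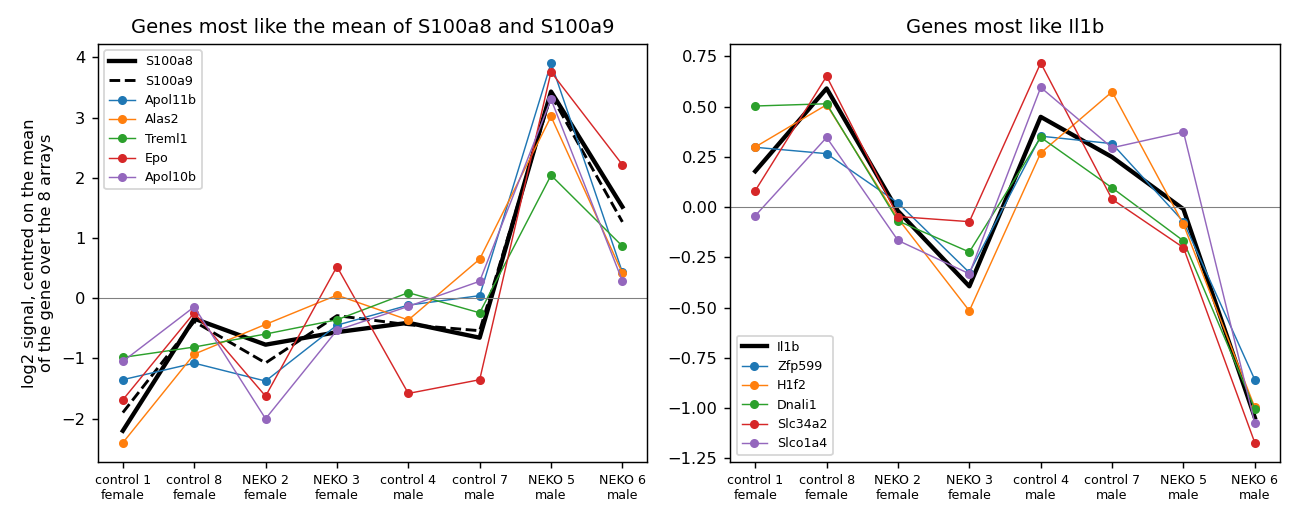
Log2 signal centred on the mean of each gene over the 8 arrays, for *S100a8* and *S100a9* with the 5 genes most like their mean, and for *Il1b* with its 5 most like genes. The calprotectin-like profiles share a high value in NEKO 5, whereas the *Il1b*-like profiles are lowest in NEKO 6.

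*Csf3r*, the receptor for granulocyte colony-stimulating factor that sustains neutrophil production, was well above background only on the array of NEKO 5, at -4.63. The next level was -5.70, in NEKO 6, and the other 6 mice lay between -7.35 and -7.05, so that its order at the top was that of the calprotectin genes. As no control array measured it and the mean of the NEKO mice lay under the lowest measurable signal, no fold is given. Of the other genes of granulocyte colony-stimulating factor signalling, 8 were tested and none was called, with a median log2 change of 0.15. No array measured *Csf3*, its ligand, above background.

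Markers of neutrophils were read beside these genes. Of 22 listed genes on the array, 5 to 10 were well above background in the controls, 8 in each NEKO female, 9 in NEKO 6 and 15 in NEKO 5. *Camp*, *Ngp* and *Mmp8*, which encode granule proteins, the receptor *Fpr1* and 1 of the 2 probes of the receptor *Cxcr2* were above background on the array of NEKO 5 alone. The other way, *Trem1* was above background in control 4 alone, *Chil1* in controls 4 and 8 and NEKO 2, and *Ctsg* in controls 1 and 4 and NEKO 5. *Elane*, *Prtn3*, *Cd177*, *Fpr2* and *Itgb2l* were above background on none. The 8 tested genes had a median log2 change of 0.47, at -0.06 in females and 0.98 in males, and none was called. For 3 of the 8, *Padi4*, which citrullinates histones, *Mmp9*, gelatinase B, and the integrin gene *Itgam*, neither control male was well above background, and the median in males with these at their lower bound was 0.90. For these bounds the control males were set no lower than the lowest signal well above background on their arrays. The ratio of means, 2 NEKO males over 2 control males, was then 5.30 for *Padi4*, 5.15 for *Mmp9* and 1.91 for *Itgam*. The bounds concern these mice only, have no interval, and do not measure the size of an effect. The summed signal of the list, in units of the 75th percentile of the array, was 5.30 to 7.33 in controls, 4.47 to 6.76 in NEKO females and 6.88 to 7.26 in NEKO males. Most of each sum came from *G0s2* (levels of 1.31 to 2.50) and *Mxd1* (0.36 to 0.67), which were bright on every array. Their log2 changes were -0.11 and 0.01, and the sum therefore says little about the dimmer genes of the list. The part of neutrophil number in the calprotectin values was not tested.

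**Figure D4:**
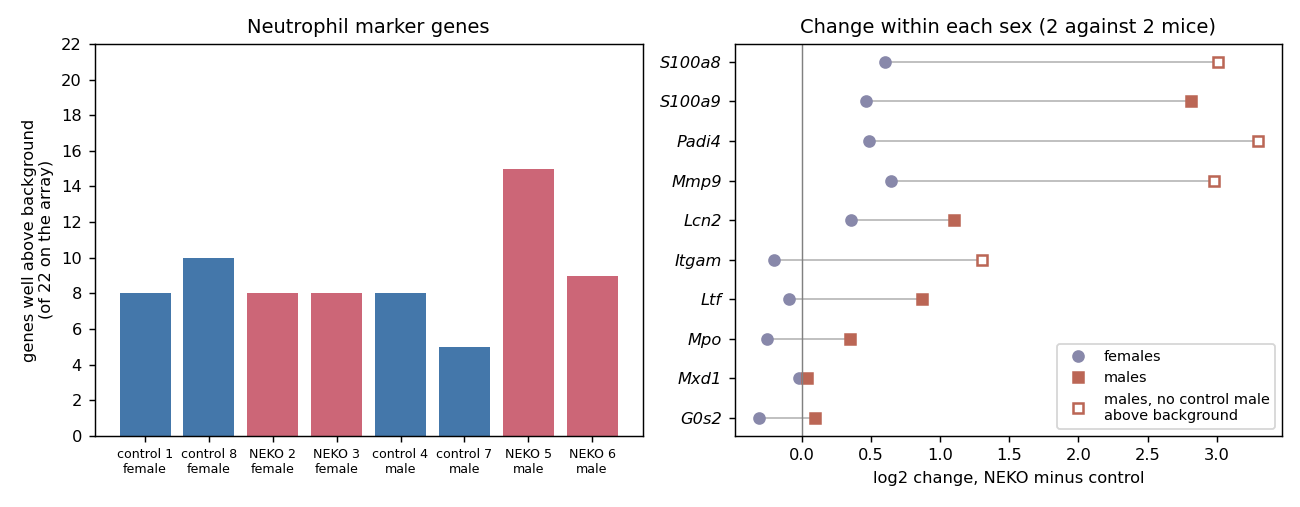
Number of the 22 neutrophil marker genes on the array that were well above background in each mouse, and log2 change of *S100a8*, *S100a9* and the 8 tested neutrophil genes within females and within males, 2 against 2 mice each. NEKO 5 has 15 such genes and the other mice 5 to 10, and open squares mark *S100a8*, *Padi4*, *Mmp9* and *Itgam*, for which no control male was above background and the size of the change is not measured.

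Markers of other cell types were read in the same way, and none of those tested was called. The 7 tested genes of blood cells and platelets had a median log2 change of 0.75, and the summed signal of the list was 247 to 721 in NEKO males, 182 to 214 in NEKO females and 76.9 to 395 in controls. The 12 tested genes of squamous and urothelial epithelium, which also expresses calprotectin, had a median change of 1.07 and summed signals of 9.60 to 10.6 in NEKO males, 4.21 to 5.28 in NEKO females and 2.19 to 4.54 in controls. Among them *Krt5*, whose promoter drives the Cre, had a log2 change of 1.85 (SE 0.47, adjusted p 0.14 in limma) and *Sprr1a* one of 1.88, without overlap of the groups. The other way, *Upk1a* was at -0.71 without overlap and *Krt10* at -0.59. In all, 3 of the 12 were higher and 1 lower without overlap, against 3.89% and 5.39% of all genes and transcripts. *Krt6a*, *Krt6b* and *Dsg3* of that list were not above background on any array. Macrophage genes had a median change of 0.19, with *Trem2* at 2.77 (adjusted p 0.12), and monocyte genes one of 0.26, with *Vcan*, well above background in only 1 of the 4 NEKO mice, at -2.56 (adjusted p 0.074) and *Ly6c2* at 0.26. The lymphocyte list had a median change of 0.12, and *Cd8a* was at -1.28 (adjusted p 0.19). The part of these cells in the calprotectin values was not tested.

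*Il1b*, the inducible cytokine of the group, is measured by 10 spots per array. Its level was -4.14, -3.87, -4.07 and -3.73 in controls 1, 4, 7 and 8, and -4.34, -4.71, -4.33 and -5.37 in NEKO 2, 3, 5 and 6. The last, in NEKO 6, was not well above background. Every NEKO mouse lay below every control. The gap between the highest NEKO mouse and the lowest control was about the median SD between the spots of 1 array, which was 0.19. Each level is a mean over the spots, and the SE of that mean was 0.02 to 0.09, which does not include the spread between mice. The log2 change was -0.73 (SE 0.24, 95% interval -1.30 to -0.17), with an adjusted p of 0.20 in limma. The exact two-sided permutation test gave the smallest p it can, 0.029. *Il1b* was the only one of the 5 tested genes of the group whose groups did not overlap, and 5.39% of all genes and transcripts tested were without overlap and lower in NEKO mice, with 3.89% higher. Its change was -0.59 in females and -0.88 in males, and the difference between them had an adjusted p of 0.90. With normexp background correction, which bears most on dim probes, the log2 change was -0.25 (adjusted p 0.24).

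The 5 named genes most like *Il1b* were *Zfp599* (root mean square difference over 8 arrays 0.15), *H1f2* (0.15), *Dnali1* (0.16), *Slc34a2* (0.19) and *Slco1a4* (0.20), against a size of 0.49 for the *Il1b* pattern. *H1f2* encodes a linker histone, *Slc34a2* a sodium-phosphate cotransporter and *Slco1a4* an organic anion transporter. No neutrophil, monocyte or macrophage gene of the lists was among them. These lists had 8, 7 and 12 tested genes, and 13569 named genes were compared. A choice of 5 would thus seldom hold one of them, and nothing about these cells follows.

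*Il18*, also measured by 10 spots, was well above background in every mouse. Among females its level was -2.15 and -2.08 in controls 1 and 8 and -2.49 and -2.55 in NEKO 2 and 3. Among males it was -1.44 and -1.54 in controls 4 and 7 and -2.13 and -1.93 in NEKO 5 and 6. Within each sex both NEKO mice lay below both controls, while over the sexes the groups overlapped, as the males were higher in both. The log2 change was -0.47 (SE 0.08, 95% interval -0.66 to -0.28), a ratio of 0.722, with an adjusted p of 0.067 in limma. It was the closest of the group to the threshold, and it passed (adjusted p 0.042) in the interaction model, as the mean of the effects in females and males. The change was -0.40 (SE 0.11) in females and -0.54 (SE 0.11) in males. Without regard to sex, the exact two-sided permutation test gave p of 0.14.

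The same fit gave a log2 difference of 0.56 (SE 0.08, adjusted p 0.042) between males and females for *Il18*, higher in males. It was the only one of the 5 tested genes called for sex, against 0.786% of all genes and transcripts, and it lies with the slide. *Il18* is on chromosome 9, as is *Keap1*, with 184 tested genes between them.

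*Il1r1*, the receptor that transmits the IL-1 signal, was well above background in all mice and varied little. Its level was -0.55, -0.97, -0.80 and -0.36 in controls 1, 4, 7 and 8, and -0.64, -0.44, -0.67 and -0.74 in NEKO 2, 3, 5 and 6. The NEKO mice lay within the range of the controls. The log2 change was 0.05 (SE 0.10, 95% interval -0.18 to 0.28, adjusted p 0.81 in limma), and it was -0.01 without control 4. *Il1rn*, the antagonist of this receptor, has 2 probes, neither well above background on any array. One of them lay at -5.89 and -6.11 in the NEKO males and between -7.48 and -7.00 in the other 6 mice, and the other between -7.77 and -6.85 in all mice. *Tnf*, a cytokine of macrophages that often rises with IL-1 beta, was likewise not measured above background, at -7.35 to -6.60 in controls and -7.30 to -6.66 in NEKO mice. No fold is given for *Il1rn* and *Tnf*, as both groups were under the lowest measurable signal.

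In all, 5 of the 8 genes had a probe well above background on at least 4 arrays and were tested. In limma, 0 of these 5 were called at an adjusted p under 0.05, where 0.225% of all 19593 genes and transcripts were called. By direction, 0.0970% of the genes and transcripts were higher in NEKO mice and 0.128% lower. At an unadjusted p under 0.05, 2 were higher (*S100a8* and *S100a9*) and 2 lower (*Il1b* and *Il18*), against 18.0% of all genes and transcripts, 7.39% higher and 10.6% lower. By the methods' comparison, which allows unequal variances, 1 of the 5 (*Il1b*) was under 0.05 before adjustment and 0 after it. Over all 19593 genes and transcripts, 2212 were under 0.05 before adjustment and 1 after it.

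The genes around calprotectin were read from lists. Of the other S100 genes 11 were tested and none was called, with a median log2 change of 0.07 against -0.03 over all genes and transcripts. At an unadjusted p under 0.05, 3 were higher and 2 lower, against 7.39% and 10.6% of all genes and transcripts. The groups did not overlap for 2 higher and 2 lower, against 3.89% and 5.39%. The largest of these were *S100a3* at -1.58 (SE 0.25, adjusted p 0.064 in limma) and *S100a6*, a calcium-binding protein of epithelia and fibroblasts, at 0.85 (SE 0.26, adjusted p 0.19). Among the receptors that sense calprotectin, *Ager* was not above background on any array, and the 6 tested, with *Tlr4* at 0.19 and its partner *Ly96* at 0.10, had a median change of -0.05, with none under an unadjusted p of 0.05.

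The IL-1 family and its signalling chain gave changes below 1 on the log2 scale. *Il1a* and *Il18rap* were not above background on any array. The 7 tested relatives had a median log2 change of 0.25, with *Il18r1*, a chain of the IL-18 receptor, at 0.59 (SE 0.28, adjusted p 0.32 in limma), at 1.32 in males and -0.13 in females. Of the 11 tested genes of IL-1 signalling none was called, and the median change was 0.12. At an unadjusted p under 0.05, 2 were higher and 0 lower, against 7.39% and 10.6% of all genes and transcripts. *Irak2*, a kinase of the Myd88 complex, had a log2 change of 0.50 (SE 0.08, adjusted p 0.067), and *Traf6*, the ubiquitin ligase downstream of it, one of 0.23 (SE 0.08, adjusted p 0.22). In both the groups did not overlap, nor did they for *Myd88* at 0.18. In all, 3 of the 11 were higher without overlap and 0 lower, against 3.89% and 5.39% of all genes and transcripts. *Irak2* passed the test with normexp background correction and with the effect averaged over the sexes.

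The 10 tested inflammasome genes had a median log2 change of 0.02, and none was called. *Casp1*, the protease that cuts both cytokine precursors, was at 0.27 (SE 0.24), *Pycard*, the adaptor, at -0.31 (SE 0.11, adjusted p 0.23 in limma) and *Nlrp3*, the sensor, at -0.47 (SE 0.25). Of 12 tested genes of the TNF pathway none was called and the median change was 0.03. *Tnfaip2*, induced by TNF, was the only one whose groups did not overlap, at 0.48 (SE 0.10, adjusted p 0.097).

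Of the NF-kB subunits, inhibitors and targets 14 were tested and none was called, with a median log2 change of 0.12, at -0.20 in females and 0.49 in males. *Cxcl1*, a chemokine that draws neutrophils, was at 1.27 (SE 0.30, adjusted p 0.12 in limma), at 1.30 in females and 1.24 in males. It was well above background in all 4 NEKO mice and in 2 controls, and was the only one of the list without overlap of the groups. *Il6*, *Cxcl2*, *Ptgs2*, *Sele* and *Selp*, all induced in inflamed tissue, were not above background on any array.

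**Figure D5:**
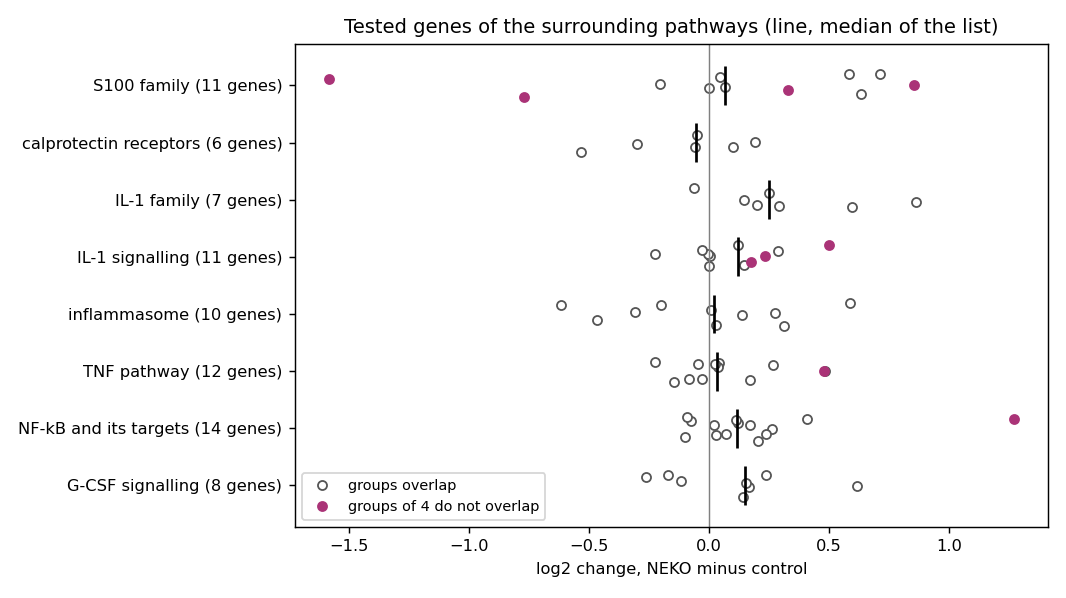
Log2 change, NEKO minus control, of every tested gene of 8 lists around the group, with 1 point per gene and a line at the median of the list. Filled points are genes whose groups of 4 mice did not overlap, such as *S100a3* at -1.58, *Cxcl1* at 1.27 and *Irak2* at 0.50, and all 8 medians lie between -0.05 and 0.25.

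The targets of Nrf2 and genes of tubular injury were read on the same scale. Of 11 tested Nrf2 targets 2 were called, *Gpx2* at 5.40 (SE 0.46, adjusted p 0.011 in limma) and *Txnrd1* at 1.30 (SE 0.17, adjusted p 0.049), and 7 of them were higher without overlap of the groups, against the 3.89% of all genes and transcripts given above. *Gpx2* was called in 18 of 22 alternatives, but not without NEKO 5, NEKO 6 or control 7 nor by the methods' comparison after adjustment, and *Txnrd1* in 8 of 22. *Nqo1* was at 2.62 (adjusted p 0.065). The 11 genes of tubular injury had a median change of 0.56, at 0.04 in females and 1.10 in males, and none was called. At an unadjusted p under 0.05, 5 were higher and 1 lower, against 7.39% and 10.6% of all genes and transcripts. Without overlap 1 was higher, *Krt18* at 1.03, and 1 lower, *Clu* at -0.85, against 3.89% and 5.39%. The largest change was that of *Sox9*, at 1.65, with overlap of the groups.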

How the data were processed

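The authors deposited Agilent Feature Extraction output with intensity values per spot, in which the processed signal is background-subtracted and detrended and further columns flag outlier spots and spots well above background. A second deposited table, the series matrix, holds log2 values. Of these, 99.9% lay within 0.01 of log2 processed signals divided by the 75th percentile of each array and centred per probe, with column medians between -0.04 and 0.08. The methods of the authors name, for the paper as a whole, an unpaired comparison allowing for unequal variances, and how the arrays were normalized is not given in the sources used here.

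Outlier spots were left out (73 to 172 of 43379 per array), spots of a probe were averaged, and log2 values were set against the 75th percentile of each array, control probes excluded. Accessions matched RefSeq genes of GRCm38.p6 for 26690 of 41174 probes. A probe was tested if well above background on at least 4 arrays with values on at least 6, and the brightest such probe stood for its gene. limma 3.58.1 under R 4.3.3 fitted genotype with sex as a covariate, and a second model their interaction, with Benjamini-Hochberg adjustment over 19593 genes and transcripts. The arrays are separate mice, their number limits the precision, and no pair of arrays shared values. Exact two-sided permutation tests compared single genes. The procedure was tested on simulated data. Alternatives were other background corrections, scalings, filters, models and the matrix, and leaving out each mouse.

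Named genes are the 8 genes, called genes of each list, the 2 largest changes per list without overlap of the groups, the 5 genes most like each pattern, and *Keap1*. Other list genes, such as *Padi4*, *Mmp9*, *Itgam*, *Trem1*, *Il18r1* and *Casp1*, were named after their values were seen. The 8 genes and all lists were chosen with earlier results of these data known. Promoter windows came from the RefSeq table, used for no array coordinate.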

Additional observations from a re-analysis of the deposited data

Results flagged for a closer look

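Control 1 was low for both calprotectin genes and stood apart from the other 3 controls. For *S100a8* it lay at -6.43 against -4.89 to -4.57, a gap of 0.830 of the whole range of the group, just past the critical value for 4 samples. For *S100a9* it lay at -2.69 against -1.33 to -1.18, a gap of 0.899 of the range. Of the 18 groups of 4 mice looked at, over 9 probes, these 2 stood apart, chance gives about 1 in 20 groups, and both come from the same mouse and from genes that vary together. Control 1 was the only K1 mouse, without K5-Cre. Without it the log2 change was 1.67 (adjusted p 0.38 in limma) for *S100a8* and 1.57 (adjusted p 0.40) for *S100a9*.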

How the results depend on the processing

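Of the 8 genes, 5 were tested in 16 of the 22 alternatives, and the others tested between 3 and 8. None of those tested was called higher in NEKO mice, and in 20 alternatives none was called lower. The exceptions were 1 gene, *Il18* (adjusted p 0.042 in limma), with the effect averaged over the sexes, and 1 gene, *Il1b* (p 0.0498), by the methods' comparison before adjustment. In the 8 alternatives of the interaction model, 0 of the genes of the group that were tested had an effect that differed between the sexes. The genes of the other lists that were called numbered 2, against 6 with normexp, 18 with the effect averaged over the sexes, 34 by the methods' comparison before adjustment and 0 after it, and 1 with quantile normalization, with scaling to the median, with no filter on dim probes, with detection required on all 8 arrays, with no sex term and with the slide as a block. Leaving out each mouse gave 0 to 2. The cause was not tested. The counts over all genes and transcripts were 44, against 182 with normexp, 92 with a trend and robust fit, 98 with array weights, 513 with the effect averaged over the sexes, 20 with detection on all 8 arrays, 1 by the methods' comparison after adjustment and 2212 before it, and 1 to 38 with a mouse left out.

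Leaving out each mouse gave log2 changes of 0.98 to 2.17 for *S100a9*, -0.91 to -0.50 for *Il1b*, -0.50 to -0.42 for *Il18* and -0.010 (adjusted p 0.97) to 0.12 for *Il1r1*, whose direction turned without control 4. *S100a8* was not tested without NEKO 3, 5 or 6 or control 8, each of which took it under the filter, and gave 1.52 to 2.09 without the others. With its probe kept, an alternative chosen after seeing the data, it ranged from 1.18 without NEKO 5 to 2.42 without control 8. No paired analysis was possible because the replicate numbers run over both groups and none is shared. With 2 mice per sex and group, intervals of the sex difference were wide. *Csf3r*, *Il1rn* and *Tnf* were limited by signal over background.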
